A study of Mus musculus with 8 samples.

Results

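The respiratory chain of mitochondria is built from subunits that come from 2 genomes, except for complex II, whose subunits are all encoded in the nucleus. Assembly factors are proteins that are not part of the finished complex but make it possible: they insert heme, copper, flavin and iron-sulfur groups, hold newly made subunits and join subcomplexes. Heart muscle depends on them heavily, and inherited loss of several of them in humans causes cardiomyopathy or encephalopathy. The 35 genes described here encode such factors of complexes II to V, with 21 for cytochrome c oxidase (complex IV), 6 for the bc1 complex (complex III), 3 for succinate dehydrogenase (complex II), 3 for ATP synthase (complex V) and the related proteins Higd1a and Higd2a. They were taken from a list of names, and all 35 were found among the 49584 features counted.

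RNA of crude mitochondria from hearts of 4 Tefm knockout and 4 control mice was sequenced, and the sample titles call it total RNA. The mRNAs of nuclear genes, the assembly factors among them, were thus counted only as far as this preparation held them. Whether their recovery differed between the groups was not tested. In the knockouts (titled L/L, cre and given as Tefm -/-) both Tefm alleles carried loxP sites around an exon, and cre was driven by the muscle creatine kinase promoter, which acts in heart and skeletal muscle cells, so other cells of the heart keep the gene. The controls (titled L/L) are given as Tefm +/+ in the genotype label, and are read here as carrying the loxP-flanked alleles without cre. No label gives the age of the animals. TEFM is the elongation factor of the mitochondrial RNA polymerase, and the mRNAs of mtDNA that encode subunits of complexes III to V were lower in the knockouts: mt-Co1, for the core subunit of cytochrome c oxidase, averaged 8017 ± 2569 CPM in knockouts and 79985 ± 3006 CPM in controls (log2 fold change -3.32, SE 0.22, adjusted p = 4.26e-08). All 5 mtDNA features tested were lower, and 4 of the 5 also when scaled by library totals. Here CPM are counts scaled to the size of the library after TMM correction, ± is the SD over libraries, n = 4 in each group, and every adjusted p for a gene is from edgeR's quasi-likelihood test with Benjamini-Hochberg adjustment over all 17891 genes tested.

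Libraries held 21108165 to 25393933 counts in knockouts and 26268804 to 27403415 in controls, of which mtDNA took 38.7% to 59.3% in knockouts and 72.3% to 74.0% in controls. Knockout library 1 held the 59.3%, against 38.7% to 44.2% in the other 3 knockouts. The gene count of Tefm itself did not pass (166, 233, 230 and 245 counts in knockouts 1 to 4, against 110, 117, 106 and 144 in controls 1 to 4; log2 fold change 0.14, SE 0.11, adjusted p = 0.324), so these counts over the whole gene do not show the deletion. TMM, a scaling built on the assumption that most genes do not differ, sets the median log2 fold change of all genes near 0, and scaling by library totals instead moves that median up by 0.99. Each direction given is therefore relative to the typical gene. Cardiomyocyte markers summed to 7198 to 11281 CPM in knockouts and 15531 to 16345 CPM in controls, with 6 of 8 lower and 1 higher. Fibroblast markers summed to 221 to 405 CPM in knockouts and 240 to 253 CPM in controls, with 2 of 6 higher, and endothelial markers to 302 to 336 CPM in knockouts and 354 to 373 CPM in controls, with 3 of 6 lower. Smooth muscle and pericyte markers summed to 128 to 147 CPM in knockouts and 130 to 141 CPM in controls (1 of 5 higher, 1 lower), macrophage and leukocyte markers to 35.8 to 57.4 CPM in knockouts and 48.9 to 69.9 CPM in controls (2 of 6 lower) and red blood cell markers to 172 to 905 CPM in knockouts and 182 to 457 CPM in controls (5 tested, lowest adjusted p = 0.519). Of 7 skeletal muscle markers 2 had enough counts to test, Acta1 (higher) and Ckm (lower), which the heart also expresses; the list summed to 651 to 1178 CPM in knockouts and 540 to 611 CPM in controls, and Myh4 held no count in any library. These marker counts stand beside 26.1% higher and 23.9% lower of all genes tested. The part of these cell types in the results was not tested. In bulk RNA of such a preparation, fewer cells of a type, less RNA per cell and a different recovery cannot be told apart.

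Of the 34 assembly factors with enough counts to test, 6 rose and 10 fell in the knockouts and 18 did not pass at an FDR of 0.05. That is 47.1% called, beside 50.0% of all genes tested (26.1% higher and 23.9% lower), so the share of factors called in this fit lies near that of genes in general. Without knockout library 1 the test called 17 factors (5 higher, 12 lower) and 9625 of all genes, against 16 and 8943 with all libraries. The factors called dropped to 10 without knockout 2 or without control 1 (6 lower in each case), while 8484 and 8179 of all genes were still called. DESeq2 called 10 factors, with 5 in each direction, and 8553 of all genes, so the share of factors called fell more than that of all genes in these 3 fits. Cox10, Cox19, Cmc2, Coa3, Coa6, Coa7, Uqcc1, Uqcc3 and Atpaf2 passed without any 1 of the 8 libraries. The share of all called genes that did so was not computed. The median log2 fold change of the 34 tested factors was -0.10, against -0.01 for all genes, and the median size of change regardless of sign was 0.25, against 0.38. Changes were small: Cox19 rose and Coa7 fell by at least 2-fold, 1 of 34 each way, beside 7.32% of all genes higher and 6.72% lower by that size. Knockout and control libraries did not overlap in 12 factors (35.3%, against 45.4% of all genes). The summed level of the 35 genes was 495 to 560 CPM in knockouts and 532 to 554 CPM in controls. Scaled by library totals, 33 factors stood above 0 and passed and Coa7 stood at -0.07 and did not, beside 78.6% of all genes higher and 2.68% lower on that scale; 13 of the 34 lay above the median of all genes there.

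**Figure D1:**
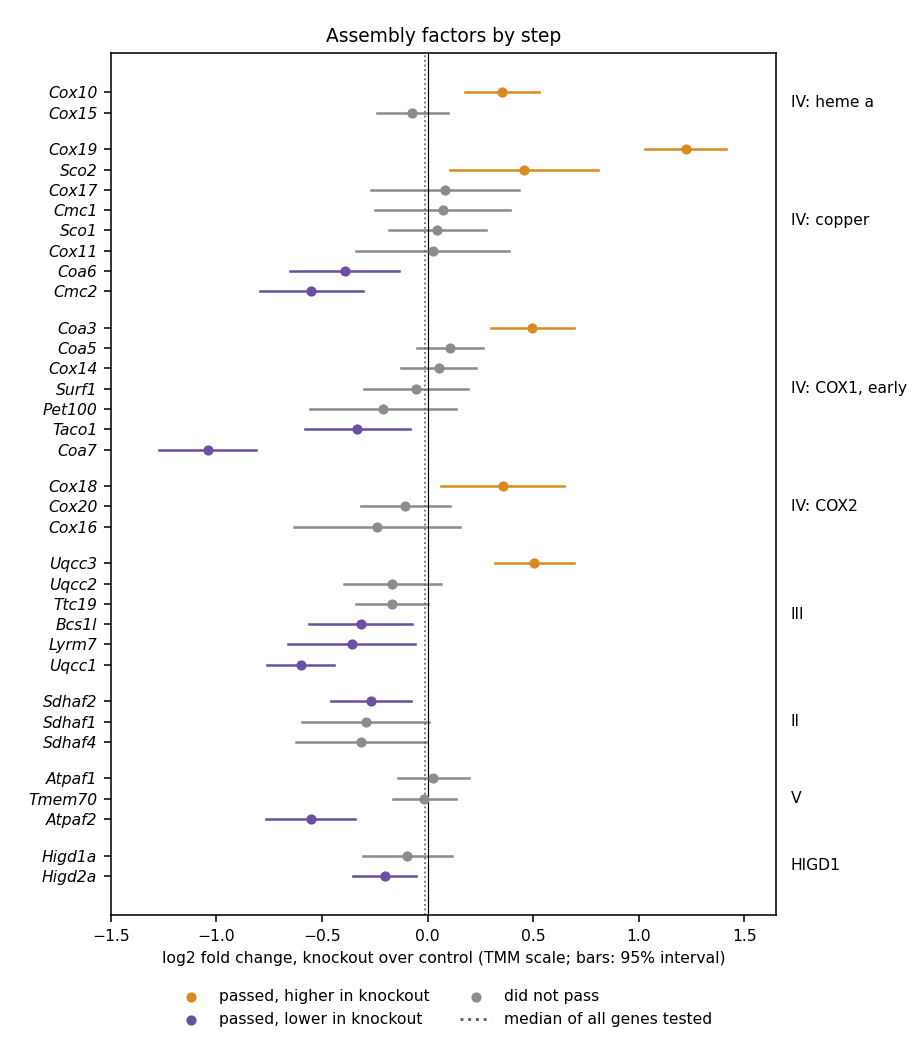
Log2 fold change (x axis, knockout over control, TMM scale) of the 34 tested assembly factors, grouped by the step they are listed under, with 95% intervals from edgeR. Cox19 lies at 1.22 and Coa7 at -1.04, and the other 32 lie between -0.60 and 0.50; scaled by library totals the values below 0 all turn positive except that of Coa7.

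The largest rise (Cox19) and the largest fall (Coa7) were both in complex IV factors, which make up 20 of the 34 tested. The windows around the RefSeq transcription start (250 bases before and 50 after, GRCm38.p6) of Cox19 and Coa7 are shown for that reason. That of Cmc2 is added, the 1 called factor whose window held matches to 2 of the 3 motifs searched. Sequences run 5′ to 3′ on the strand of the gene, and capitals mark a motif match.
Cox19, chr5:139345117-139345416, minus strand: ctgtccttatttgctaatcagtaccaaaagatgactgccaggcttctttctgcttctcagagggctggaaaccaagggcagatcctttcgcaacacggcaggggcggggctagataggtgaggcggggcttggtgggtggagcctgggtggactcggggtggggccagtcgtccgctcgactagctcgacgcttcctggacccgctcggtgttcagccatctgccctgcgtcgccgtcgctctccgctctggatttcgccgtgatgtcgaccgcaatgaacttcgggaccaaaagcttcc
Coa7, chr4:108327902-108328201, plus strand: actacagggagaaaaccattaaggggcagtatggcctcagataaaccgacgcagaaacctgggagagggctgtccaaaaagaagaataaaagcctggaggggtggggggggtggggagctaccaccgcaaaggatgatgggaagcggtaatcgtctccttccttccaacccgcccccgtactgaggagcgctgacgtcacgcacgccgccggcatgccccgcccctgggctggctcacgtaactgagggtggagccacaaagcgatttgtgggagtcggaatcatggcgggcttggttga
Cmc2, chr8:116921387-116921686, minus strand: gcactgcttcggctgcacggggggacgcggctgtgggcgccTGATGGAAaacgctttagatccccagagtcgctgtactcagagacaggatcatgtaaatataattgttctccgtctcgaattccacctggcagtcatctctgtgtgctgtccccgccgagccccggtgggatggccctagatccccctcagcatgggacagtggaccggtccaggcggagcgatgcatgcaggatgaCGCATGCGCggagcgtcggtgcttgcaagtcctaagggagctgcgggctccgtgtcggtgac

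Motifs were searched on both strands, with N for any base: TGATGNAA (the C/EBP-ATF response element bound by ATF4), GCGCNTGCG (the core of the NRF1 site) and TNAAGGTCA (a site of estrogen-related receptors). The first is in 3.97%, the second in 6.30% and the third in 1.28% of 32817 windows of all genes. Of the 31 factors with a window, 2 held the first (Cmc2 and Cmc1), 5 the second (Cmc2, Higd2a, Sdhaf4, Ttc19 and Uqcc2) and 0 the third. The 5 factors that rose and have a window held none, which says only that these letters are not in these 300 bases.

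Copper reaches cytochrome c oxidase through small proteins of the intermembrane space. Of the 8 genes listed for this step, 2 rose, 2 fell and 4 did not pass. The 25.0% in each direction lies near the 26.1% higher and 23.9% lower of all genes. Cox19 (chromosome 5, 139336189 to 139351418, minus strand in GRCm38) encodes a protein with paired cysteine motifs that in yeast works with Cox11 on the copper site of the COX1 subunit. It had 25.6, 28.1, 31.1 and 31.5 CPM in knockout libraries 1 to 4, against 11.9, 13.6, 12.8 and 11.6 CPM in control libraries 1 to 4. All 4 knockout libraries lay above all 4 controls, by 2.33-fold in the fit (log2 fold change 1.22, SE 0.09, adjusted p = 8.94e-08, 95% interval 1.03 to 1.41). Its call held without each of the 8 libraries. Its partner Cox11, which delivers copper to COX1, averaged 4.21 ± 0.895 CPM in knockouts and 4.16 ± 0.628 CPM in controls and did not pass (log2 fold change 0.02, SE 0.17, adjusted p = 0.917). Of the exonic bases of Cox11 48.3% are shared with Tom1l1 on the opposite strand.

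Cmc2 (chromosome 8, 116888685 to 116921455, minus strand), the gene of a further protein with paired cysteine motifs needed for cytochrome c oxidase in yeast, fell. It had 7.72, 6.69, 8.08 and 9.45 CPM in knockout libraries 1 to 4, against 11.01, 10.6, 13.1 and 12.01 CPM in control libraries 1 to 4 (log2 fold change -0.55, SE 0.11, adjusted p = 0.00113). The groups did not overlap, and the call held without each library; with library totals the log2 fold change was 0.45. Coa6, which acts with the SCO proteins on the copper site of the COX2 subunit, fell as well (log2 fold change -0.39, SE 0.12, adjusted p = 0.0144). It had 3.94, 3.76, 3.66 and 4.38 CPM in knockout libraries 1 to 4, against 5.16, 5.61, 4.48 and 5.38 CPM in control libraries 1 to 4, with no overlap, and its call was lost without the filter on low counts (adjusted p = 0.0516). With library totals its value was 0.60.

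Sco1 and Sco2 are copper chaperones of COX2. Sco2 had 3.94, 4.60, 3.58 and 5.55 CPM in knockout libraries 1 to 4, against 2.95, 2.93, 3.87 and 3.14 CPM in control libraries 1 to 4 (log2 fold change 0.46, SE 0.16, adjusted p = 0.0309). Knockout library 3 lay below control library 3, so the groups overlapped, and the call was lost without knockout 2 or 4 or control 1, 2 or 4 (adjusted p = 0.0612 to 0.104). Of the exonic bases of Sco2 91.8% are shared with Tymp or Ncaph2, and no source used here says how reads in shared exons were assigned. Sco1 averaged 11.7 ± 0.650 CPM in knockouts and 11.3 ± 1.75 CPM in controls (log2 fold change 0.05, SE 0.11, adjusted p = 0.751). Cox17, the chaperone that hands copper to SCO1 and COX11, stood at 0.08 (95% interval -0.27 to 0.43, adjusted p = 0.707), and Cmc1, a relative of Cmc2 by name and motif that binds early COX1 intermediates in human cells, at 0.07 (95% interval -0.25 to 0.39, adjusted p = 0.718).

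**Figure D2:**
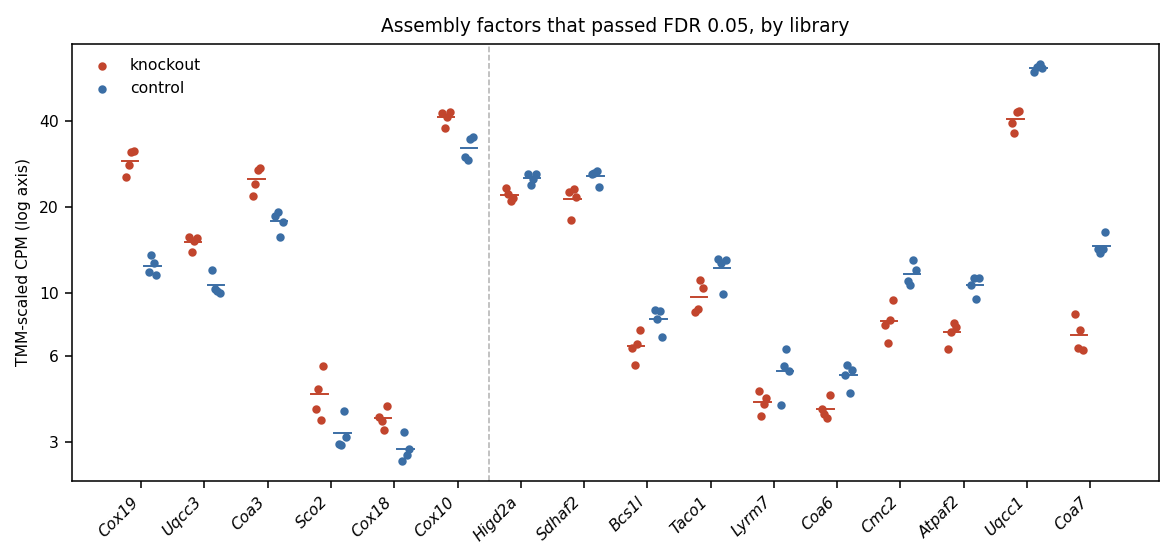
TMM-scaled CPM (log axis) of the 16 factors that passed FDR 0.05, 1 point per library with the group mean as a line; the 6 left of the dashed line were higher in knockouts on this scale. Of the 16, Sco2, Taco1, Bcs1l and Lyrm7 have knockout and control points that overlap; with library totals all of the falls but that of Coa7 turn positive.

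The heme a of cytochrome c oxidase is made from heme b in a pair of steps. Cox10, the farnesyltransferase of the first step (chromosome 11, 63962627 to 64079468, minus strand), rose and had 42.7, 37.9, 41.3 and 43.3 CPM in knockout libraries 1 to 4, against 30.0, 29.4, 34.7 and 35.4 CPM in control libraries 1 to 4 (log2 fold change 0.35, SE 0.08, adjusted p = 0.00259). The groups did not overlap. Cox15, the heme a synthase of the second step, averaged 19.4 ± 1.24 CPM in knockouts and 20.4 ± 1.42 CPM in controls and did not pass (log2 fold change -0.07, SE 0.08, adjusted p = 0.468). Fdxr, the ferredoxin reductase whose yeast counterpart feeds electrons to Cox15, was on the list of other factors and averaged 6.57 ± 1.05 CPM in knockouts and 2.57 ± 0.234 CPM in controls (log2 fold change 1.35, SE 0.15, adjusted p = 4.22e-06).

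The largest fall was in the list for COX1 translation and the early module of complex IV. That list groups genes and does not place each of them at a COX1 step. Coa7 (chromosome 4, 108328140 to 108341544, plus strand), a protein of SEL1-like repeats in the intermembrane space whose loss causes complex IV deficiency in humans, had 8.45, 6.43, 7.41 and 6.30 CPM in knockout libraries 1 to 4, against 14.2, 13.8, 14.3 and 16.3 CPM in control libraries 1 to 4. Knockouts were at 0.486 of the control level (log2 fold change -1.04, SE 0.11, adjusted p = 2.38e-06, 95% interval -1.27 to -0.81), with no overlap and with the call kept without each library. It was the 1 tested factor below 0 with library totals, where its call was lost (adjusted p = 0.726). Coa3, which binds newly made COX1 and couples its translation to assembly (chromosome 11, 101277968 to 101279114, minus strand), moved the other way and had 21.9, 24.1, 26.9 and 27.5 CPM in knockout libraries 1 to 4, against 18.7, 19.2, 15.8 and 17.7 CPM in control libraries 1 to 4 (log2 fold change 0.49, SE 0.09, adjusted p = 0.000483). Its groups did not overlap, and its call held without each library.

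Taco1 encodes the translational activator of COX1. It had 8.56, 8.80, 11.1 and 10.4 CPM in knockout libraries 1 to 4, against 13.2, 12.7, 9.96 and 13.1 CPM in control libraries 1 to 4 (log2 fold change -0.33, SE 0.12, adjusted p = 0.0273), with control library 3 within the knockout range. This fall was lost without knockout 2 or control 1, 2 or 4 (adjusted p = 0.0639 to 0.0785) and with DESeq2 (adjusted p = 0.0552), and its value with library totals was 0.67. Cox14, the partner of COA3 on COX1, averaged 25.4 ± 2.53 CPM in knockouts and 24.5 ± 1.19 CPM in controls (95% interval of the log2 fold change -0.13 to 0.23, adjusted p = 0.631). Surf1, a membrane protein that serves heme a insertion, averaged 5.61 ± 0.591 CPM in knockouts and 5.82 ± 0.465 CPM in controls (log2 fold change -0.05, SE 0.12, adjusted p = 0.721). Coa5, a factor of the early steps with the most counts of all members, averaged 90.7 ± 6.05 CPM in knockouts and 84.2 ± 3.96 CPM in controls (log2 fold change 0.11, SE 0.07, adjusted p = 0.24). Pet100, a chaperone of a later intermediate, averaged 2.03 ± 0.113 CPM in knockouts and 2.36 ± 0.358 CPM in controls (log2 fold change -0.21, SE 0.16, adjusted p = 0.298) and shares 52.6% of its exonic bases with Pcp2 on the opposite strand. Pet117 was listed at 0 in all 8 libraries; all 693 of its exonic bases lie in exons of Kat14 on the same strand, so its level could not be measured here.

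For the COX2 subunit, Cox18, which moves the tail of COX2 across the inner membrane, had 3.67, 3.56, 3.32 and 4.03 CPM in knockout libraries 1 to 4, against 2.58, 3.25, 2.71 and 2.84 CPM in control libraries 1 to 4 (log2 fold change 0.35, SE 0.14, adjusted p = 0.0425). The groups did not overlap, but the call was lost without any 1 of knockouts 1, 2 and 4 or controls 1, 3 and 4 (adjusted p = 0.0596 to 0.115), with DESeq2 (adjusted p = 0.0920) and with the replicate number as a block (adjusted p = 0.0617). Cox20, a chaperone of COX2, and Cox16, which joins the COX1 and COX2 modules, did not pass, at log2 fold changes of -0.11 (adjusted p = 0.392) and -0.24 (adjusted p = 0.296). Cox20 shares 91.1% of its exonic bases with Hnrnpu on the opposite strand, and Cox16 56.8% with Gm20498. A pseudogene named Cox20-ps held 1109 counts in knockouts and 720 in controls, so reads of Cox20 may be split between the 2.

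Among complex III factors 3 of 6 fell, 1 rose and 2 did not pass (50.0% lower and 16.7% higher, beside 23.9% and 26.1% of all genes). The difference from all genes was not tested. Uqcc1 (chromosome 2, 155846894 to 155930310, minus strand), which with UQCC2 binds newly made cytochrome b, had 39.5, 36.4, 43.2 and 43.6 CPM in knockout libraries 1 to 4, against 59.6, 62.3, 63.7 and 61.4 CPM in control libraries 1 to 4. Knockouts lay below all controls (log2 fold change -0.60, SE 0.07, adjusted p = 1.41e-05), the call held without each library, and the log2 fold change was 0.40 with library totals. Uqcc2 averaged 6.52 ± 0.462 CPM in knockouts and 7.31 ± 0.777 CPM in controls and did not pass (log2 fold change -0.17, SE 0.11, adjusted p = 0.21). Uqcc3, a membrane protein that acts after them on cytochrome b (chromosome 19, 8880014 to 8880923, minus strand), rose instead and had 15.7, 13.9, 15.3 and 15.7 CPM in knockout libraries 1 to 4, against 12.1, 10.4, 10.2 and 10.02 CPM in control libraries 1 to 4 (log2 fold change 0.50, SE 0.09, adjusted p = 0.000279), with no overlap and with its call kept without each library.

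Bcs1l, the ATPase that moves the Rieske iron-sulfur protein into complex III, and Lyrm7, the chaperone that holds that protein before, both had small falls with overlapping libraries. Bcs1l had 6.42, 5.59, 6.61 and 7.44 CPM in knockout libraries 1 to 4, against 8.70, 8.12, 8.63 and 7.03 CPM in control libraries 1 to 4 (log2 fold change -0.32, SE 0.11, adjusted p = 0.0314), lost without knockout 2 or 3 or control 1, 2 or 3 (adjusted p = 0.057 to 0.0922). Lyrm7 had 4.55, 3.70, 4.10 and 4.29 CPM in knockout libraries 1 to 4, against 4.06, 5.55, 6.36 and 5.33 CPM in control libraries 1 to 4 (log2 fold change -0.36, SE 0.14, adjusted p = 0.0465), lost without knockout 2, 3 or 4 or control 2, 3 or 4 (adjusted p = 0.0698 to 0.157) and with the replicate number as a block (adjusted p = 0.0696). Both calls were also lost with DESeq2 (adjusted p = 0.0798 and 0.101) and without the filter (0.0867 and 0.0932), and with library totals the values turned to 0.68 and 0.62. Ttc19, which clears fragments of the Rieske protein, stood at -0.17 (adjusted p = 0.0934).

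The 3 complex II factors all had values below 0, where the median of all genes was -0.01. Of the 3, 1 passed, as a fall (33.3%, beside 23.9% of all genes lower). Sdhaf2, which attaches flavin to SDHA, had 22.7, 18.002, 23.3 and 21.7 CPM in knockout libraries 1 to 4, against 26.2, 26.4, 26.8 and 23.6 CPM in control libraries 1 to 4 (log2 fold change -0.27, SE 0.09, adjusted p = 0.0215). The groups did not overlap, but the call was lost without knockout 2 or control 1, 2 or 3 (adjusted p = 0.0518 to 0.06), with DESeq2 (adjusted p = 0.0514) and without the filter (0.0666), and with library totals the value was 0.72. Sdhaf1, which serves the iron-sulfur subunit SDHB, averaged 7.72 ± 1.10 CPM in knockouts and 9.44 ± 1.76 CPM in controls (log2 fold change -0.29, SE 0.14, adjusted p = 0.0978) and passed without knockout 1 or control 2 (adjusted p = 0.0242 and 0.0174). It shares 69.6% of its exonic bases with E130208F15Rik on the opposite strand. Sdhaf4, a chaperone of SDHA, averaged 5.08 ± 1.04 CPM in knockouts and 6.30 ± 0.423 CPM in controls (log2 fold change -0.32, SE 0.14, adjusted p = 0.0812) and passed without knockout 1 or 4 (adjusted p = 0.0370 and 0.0291).

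For ATP synthase, Atpaf2, the chaperone of the alpha subunit (chromosome 11, 60400626 to 60418457, minus strand), fell and had 6.39, 7.29, 7.88 and 7.59 CPM in knockout libraries 1 to 4, against 10.7, 11.3, 9.57 and 11.3 CPM in control libraries 1 to 4 (log2 fold change -0.55, SE 0.10, adjusted p = 0.000344). The groups did not overlap and the call held without each library; with library totals the log2 fold change was 0.45. Atpaf1, the chaperone of the beta subunit, averaged 13.9 ± 0.835 CPM in knockouts and 13.7 ± 0.475 CPM in controls (95% interval of the log2 fold change -0.14 to 0.19, adjusted p = 0.796). Tmem70, which helps to build the c-ring, averaged 31.3 ± 1.497 CPM in knockouts and 31.6 ± 1.55 CPM in controls (95% interval -0.17 to 0.13, adjusted p = 0.866). Higd2a, a supercomplex factor, had 23.3, 22.2, 21.004 and 21.5 CPM in knockout libraries 1 to 4, against 26.1, 23.9, 25.1 and 26.3 CPM in control libraries 1 to 4 (log2 fold change -0.20, SE 0.07, adjusted p = 0.0254); this fall was lost without knockout 3 or 4 or control 1 or 4 (adjusted p = 0.0634 to 0.0804), with DESeq2 (adjusted p = 0.0743) and without the filter (0.195), and turned to 0.78 with library totals. Higd1a, its relative, stood at -0.10 (adjusted p = 0.442).

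Ratios of 2 factors within a library do not depend on the scaling between libraries. Of 7 pairs listed 6 had counts in both genes, and p-values were adjusted over these 6. The log2 ratio of Atpaf1 over Atpaf2 was 1.21, 0.82, 0.80 and 0.92 in knockout libraries 1 to 4, against 0.36, 0.20, 0.52 and 0.33 in control libraries 1 to 4. It was 0.58 higher in knockouts (SE 0.11), and that of Cox10 over Cox15 0.43 higher (SE 0.13). That of Uqcc1 over Uqcc2 was lower in knockouts by a difference of -0.44 (SE 0.11). In these 3 pairs the groups did not overlap, and each had a two-sided exact permutation p of 0.0286, the smallest that 70 relabelings allow, and an adjusted p of 0.0571, which does not pass 0.05. Cmc1 over Cmc2 (0.64, exact permutation test, p = 0.0571, adjusted 0.0857), Sco2 over Sco1 (0.38, p = 0.0857, adjusted 0.103) and Higd1a over Higd2a (0.11, p = 0.343) overlapped between the groups.

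**Figure D3:**
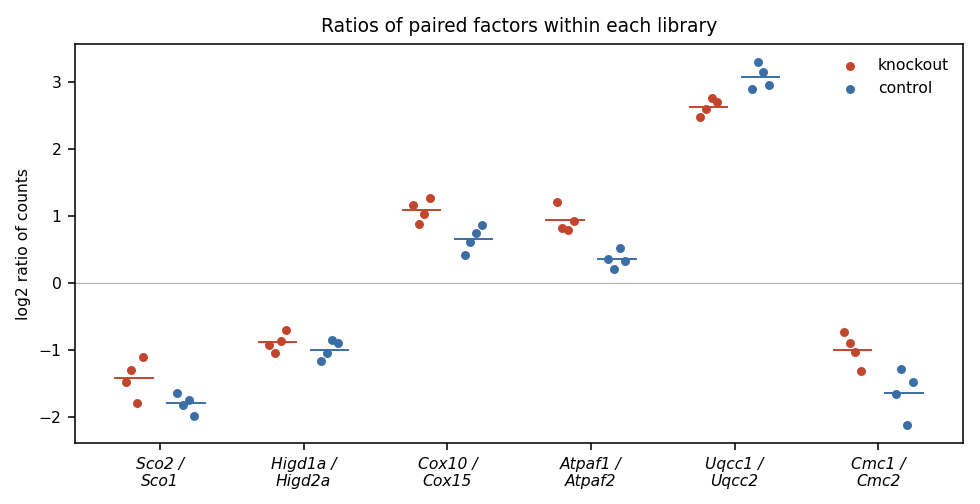
Log2 ratio of the counts of paired factors (y axis), 1 point per library with group means as lines. Knockout and control points do not overlap for Cox10 over Cox15, Atpaf1 over Atpaf2 and Uqcc1 over Uqcc2.

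Levels between genes are compared as scaled CPM per kilobase of exons, from exon lengths of GENCODE M21. The 34 factors with counts spanned 76.9-fold in controls. Higd2a (34.0 ± 1.52 in knockouts and 39.1 ± 1.70 in controls), Cox14 (35.2 ± 3.49 in knockouts and 33.9 ± 1.64 in controls) and Coa3 (28.3 ± 2.93 in knockouts and 20.1 ± 1.71 in controls) had the highest levels, and in knockouts the SDs of Higd2a and Cox14 overlapped. The lowest in controls were Cox16 (0.430 ± 0.0520 in knockouts and 0.509 ± 0.0796 in controls), Lyrm7 (0.824 ± 0.0704 in knockouts and 1.05 ± 0.189 in controls) and Cox18 (1.35 ± 0.110 in knockouts and 1.05 ± 0.107 in controls), where Lyrm7 and Cox18 did not differ beyond their SDs. Cox17 (1.17 ± 0.272 in knockouts and 1.10 ± 0.129 in controls) also lay within the SDs of both in controls. In knockouts the third lowest was Pet100 (1.137 ± 0.0635 in knockouts and 1.32 ± 0.200 in controls), after Cox16 and Lyrm7. Cox19 held rank 10 of 35 in knockouts (7.76 ± 0.743 in knockouts and 3.33 ± 0.247 in controls), against rank 24 in controls, and Coa7 rank 29, against rank 19 (1.86 ± 0.260 in knockouts and 3.81 ± 0.295 in controls). The GENCODE exons of Cox17 cover its whole span, introns included, so its level per length (rank 31 in both groups) is understated. Cox16 shares 56.8% of its exonic bases with Gm20498 on the same strand, and Pet100 52.6% with Pcp2 on the opposite strand. How reads in shared exons were assigned is not given, so these low levels, their ranks and the 76.9-fold span may depend on it.

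**Figure D4:**
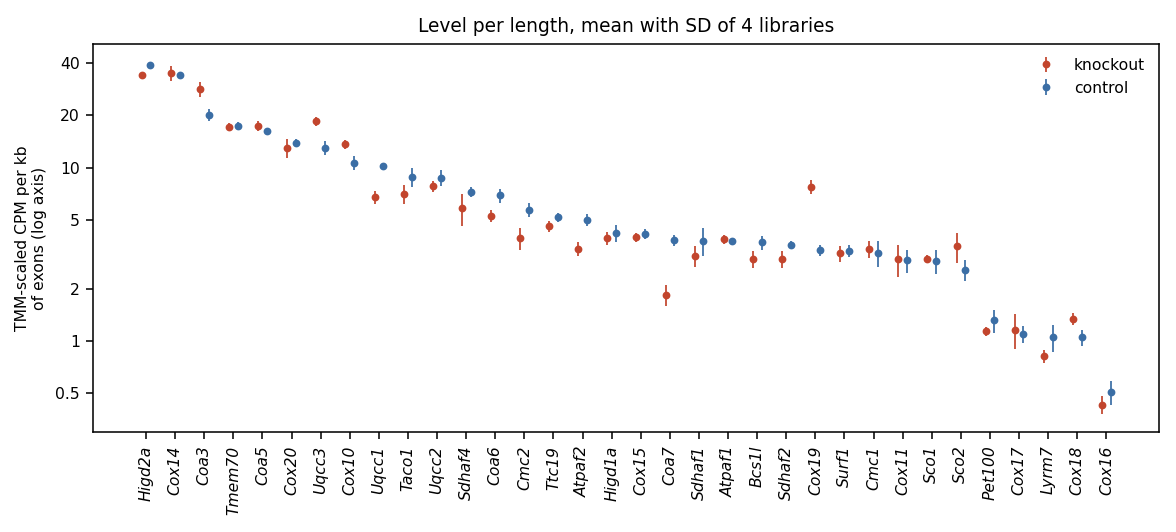
Mean TMM-scaled CPM per kilobase of exons (log axis) with SD over 4 libraries, for the 34 factors with counts in order of their control level. Cox19 rises out of this order in knockouts to 7.76 and Coa7 drops to 1.86.

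Other genes of the pathway were read from lists. Of 18 further assembly factors of complexes II to V with enough counts, 4 rose and 10 fell (22.2% and 55.6%, beside 26.1% and 23.9% of all genes), with a median log2 fold change of -0.27. The 3 of smallest p were Fdxr (given above), Lace1, an ATPase that in human cells takes part in the turnover of cytochrome oxidase subunits (-0.73), and Hccs, the lyase that attaches heme to cytochrome c (-0.41). Of 17 complex I assembly factors 1 rose and 6 fell (5.88% and 35.3%; median -0.21), led by Tmem126b (-0.87), Ndufaf4 (-0.65) and Tmem186 (-0.40). Scaled by library totals, these 2 medians turned to 0.72 and 0.77. The differences between the lists were not tested.

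The nuclear subunits that these factors put together are given by complex, and their counts stand beside the same 26.1% higher and 23.9% lower of all genes. Of complex II 3 of 4 fell (median -0.41), of complex III 6 of 9 (median -0.29) and of complex V 8 of 17 (median -0.31). Of 15 complex IV subunits tested 3 rose and 3 fell (median -0.14), with Cox6a1 at 1.47, Cox8a at 1.28 and Cox7a1 at -1.77 as the smallest p. Scaled by library totals, all 4 medians turned positive (0.56, 0.70, 0.65 and 0.85).

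**Figure D5:**
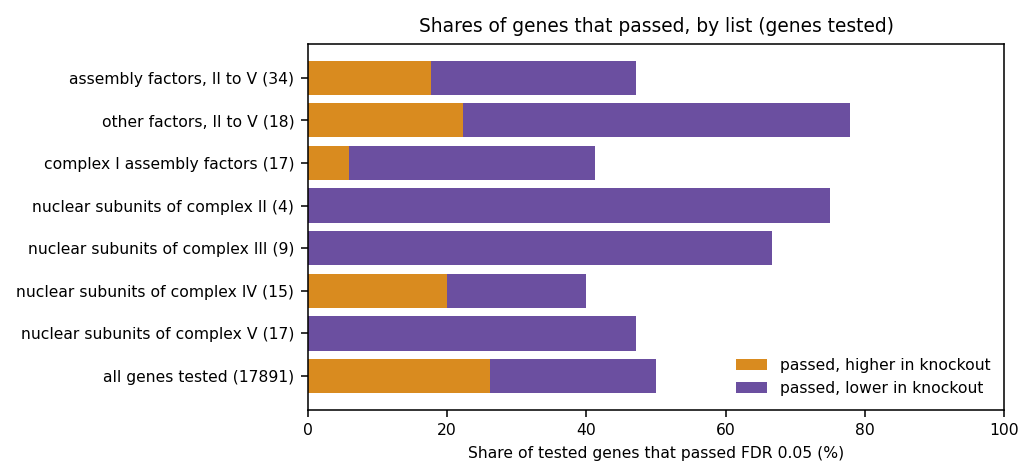
Share of tested genes (x axis, %) that passed FDR 0.05 in each list, higher or lower in knockouts, with the number tested in parentheses. For the assembly factors of complexes II to V the bar ends at 47.1%, near the 50.0% of all genes tested; scaled by library totals 33 of these 34 are higher.

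Of 8 genes of copper uptake and distribution with enough counts, 4 rose and 1 fell (50.0% and 12.5%, beside 26.1% and 23.9% of all genes). The copper and zinc binding metallothioneins Mt2 (7.89-fold, log2 fold change 2.98, SE 0.23, adjusted p = 1.84e-07) and Mt1 (2.23-fold, log2 fold change 1.16, SE 0.09, adjusted p = 1.29e-07) had the smallest p, followed by Ccs, the copper chaperone of superoxide dismutase (1.39-fold, log2 fold change 0.48, SE 0.15, adjusted p = 0.0168). Metallothioneins also respond to other metals and to glucocorticoids. Scaled by library totals, all 8 were higher.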

How the data were processed

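The deposited counts are unscaled whole numbers per gene. Per the submitters' processing notes the genome was mm10, and the tools named there are featureCounts, Bowtie2, bedtools, SAMtools 1.3.1, DESeq2 1.14.1 and R 3.3.2, with no role for any. No source used here says whether the libraries are stranded. The authors' deposited table holds a mean signal, a log2 fold change with its standard error, a test statistic given as a plain score, and p-values; for genes without counts, such as Pet117, only the mean is filled.

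Counts were tested with edgeR 4.0.16 in R 4.3.3 (two-sided quasi-likelihood F test of genotype after TMM factors and filterByExpr at a minimum count of 10), with Benjamini-Hochberg adjustment at 0.05 over 17891 genes. SE was taken as the size of the log2 fold change divided by the square root of F. Alternatives were DESeq2 1.42.0, RLE factors, library totals, nuclear genes alone, a fit without the filter, a block by replicate number and leaving out each library. Pair ratios used exact permutation over 70 relabelings, with 0.5 added to counts. Library totals were 21108165 to 27403415 counts.

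The members, lists and tests were chosen with earlier results of these data known. All members are named; from other lists at most the 3 of smallest p. Promoter windows of 6 called factors were to be shown, and none of the 6 held a motif match. Those of Cox19 and Coa7 are shown and those of Uqcc3, Coa3, Uqcc1 and Atpaf2 are left out. Cmc2 was added after its matches were seen. Exons and positions are from GENCODE M21 (GRCm38); 29 of 35 gene ID versions matched it. Sequences are from RefSeq (GRCm38.p6). Replicates differed by more than counting noise, with a chi-square per degree of freedom of 2.56 to 4.00 between controls. Between knockouts it was 91.2 to 140 for pairs with library 1 and 8.55 to 15.7 for the other pairs. Figures used matplotlib 3.10.9.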

Additional observations from a re-analysis of the deposited data

Results flagged for a closer look

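In 4 of 80 groups of 4 libraries 1 library lay far from the other 3 by Dixon's test at 95%, a rate that chance alone gives in about 1 in 20 groups. Taco1 had 9.96 CPM in control replicate 3, below the 12.7 to 13.2 CPM of the other controls. Coa5 had 99.7 CPM in knockout replicate 4, above the other knockouts at 86.9 to 88.9 CPM. Cox16 had 1.32 CPM in knockout replicate 4, from 42 counts. Sdhaf2 had 23.6 CPM in control replicate 4, below the other controls at 26.2 to 26.8 CPM.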

How the results depend on the processing

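The counts of 16 factors called (6 higher, 10 lower) were within 1.5 times of this with RLE factors, nuclear genes alone and the replicate number as a block (14 called, 5 higher and 9 lower). In that order these fits called 8944, 8885 and 8833 of all genes. DESeq2 called 10, 5 higher and 5 lower, and 8553 of all genes. Without the filter on low counts 11 were called, 5 of them lower, and 9479 of all genes; with the filter edgeR called 8943. Leaving out 1 library gave 10 to 17 called, 4 to 6 higher and 6 to 12 lower, beside 8141 to 9625 of all genes. The factors called were 10 without knockout 2 or control 1 (6 lower each) and 17 without knockout 1. Of the 16 called factors 9 passed without each of the 8 libraries, and the share of all called genes that did so was not computed. Leaving out the factors that share more of their exonic bases with another gene than not, an alternative chosen after seeing the data, left 15 called. The authors' deposited table, made from these same data, has 5 factors higher and 5 lower at an adjusted p of 0.05, all with the direction found here. The share of all genes called in that table was not computed, so these counts cannot be read against it. Taco1, Cox18, Bcs1l, Lyrm7, Sdhaf2 and Higd2a were called here but not there.

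Scaled by library totals, 33 factors were called, 33 higher and 0 lower by edgeR (also at an unadjusted p under 0.05; DESeq2 with its own scaling called 5 lower), with a median of 0.88, and 14546 of all genes were called, 14066 higher and 480 lower, against 4669 and 4274. Values that turned positive there were those of Cox15 (0.93), Coa6 (0.60), Cmc2 (0.45), Taco1 (0.67), Surf1 (0.93), Pet100 (0.77), Cox16 (0.75), Cox20 (0.87), Bcs1l (0.68), Ttc19 (0.82), Lyrm7 (0.62), Uqcc1 (0.40), Uqcc2 (0.82), Sdhaf1 (0.68), Sdhaf2 (0.72), Sdhaf4 (0.66), Atpaf2 (0.45), Tmem70 (0.97), Higd1a (0.89) and Higd2a (0.78). This follows from the scaling, which moves the median of all genes by 0.99.

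Same-number libraries of the groups did not deviate together (correlations -0.01 to 0.05, against -0.07 to 0.09 for unlike numbers). With 4 libraries in each group this cannot exclude that the numbers pair libraries. As a block the numbers left the pair ratios as they were, since means are unchanged, with exact sign-flip p of 0.125 or more, the smallest that 4 pairs allow. With 1 library left out the exact permutation p of the 3 pairs at 0.0286 was 0.0571, the smallest allowed then. Cox16, with 31 to 60 counts a library, had the fewest counts of the tested factors.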
